A study of Sus scrofa with 24 samples.

Results

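The 10 genes described here make, break down or receive prostaglandins: PLA2G4A, PTGS1, PTGS2, PTGES, PTGIS, PTGDS, HPGD, PTGFR, PTGER2 and PTGER4. They were picked by symbol from a table of 25462 pig genes, and all 10 had a row in it. The choice was made with their values in these same groups known, so their levels and differences are a description and carry no p-value. Of the 10, 8 passed the limit on low values used for testing (FPKM summed over all libraries above 1) and HPGD and PTGDS did not.

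Transcripts were sequenced in 24 libraries of primary adipocyte cultures from 6-day-old Yorkshire piglets. Fat cell precursors were taken from subcutaneous fat of the back (BF) or from inside the longissimus dorsi muscle (IMF), and 3 replicates per depot were collected before induction (day 0) and on days 2, 4 and 8, which gave the 8 groups BF-0d to BF-8d and IMF-0d to IMF-8d. Both depots received the same media: an induction cocktail of IBMX, which blocks phosphodiesterases, dexamethasone, a glucocorticoid, and insulin, then insulin, then growth medium. Cultures came from collagenase digests of tissue, and no sort for cell type is described. The study's methods name 3 piglets, but the labels do not tie a replicate to an animal, so the errors given measure only the spread between these libraries, which may be technical.

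Prostaglandins are short-lived lipid signals made on demand. A phospholipase frees arachidonic acid from membranes, the cyclooxygenases turn it into a common intermediate, and terminal synthases convert that intermediate into prostaglandin E, prostacyclin, prostaglandin D or prostaglandin F, each of which acts on its own membrane receptors. In fat tissue, prostaglandin E is known for restraining lipolysis, prostaglandin F for blocking the differentiation of fat precursors, and prostacyclin for favouring it.

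Levels are in FPKM, which divides the fragments of a transcript by its length and by library size, so levels of different genes can be set side by side. Read counts are not kept in FPKM and the depth behind each value is unknown. Library totals ran from 307967 to 385768 FPKM. Markers of several cell types were read in the same libraries. Of 7 immune markers, PTPRC, CSF1R, ITGAM and CD3E stayed below 0.2 FPKM in every library, AIF1 reached at most 1.27 and CD68 lay between 0.609 and 2.47. CD14, also an immune marker, lay between 2.10 and 17.1 FPKM, with its highest value in BF-4d replicate 3. Of 4 endothelial markers in the table, CDH5, KDR and TEK stayed below 0.2 FPKM and PECAM1 lay between 0.888 and 5.13.

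Of 7 myogenic markers, MYF5, MYOD1 and MYMK were listed at 0 in all libraries and PAX7, MYOG and MYH3 stayed below 0.2 FPKM. DES, the muscle intermediate filament, stood at 29.6, 36.2 and 45.3 FPKM in IMF-0d against 4.67, 4.50 and 4.88 in BF-0d, and at 0.0885 or less in BF-8d and 1.27 to 2.22 in IMF-8d. DES thus differed between depots and between days while the other 6 were listed at 0 or stayed below 0.2 FPKM. Without read counts, a 0 in all libraries cannot be told apart from a gene that was not measured.

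Of 9 adipocyte markers, 8 were in the table, and their summed level went from between 10.8 and 12.5 FPKM in BF-0d to between 282 and 623 in BF-8d, and from between 4.50 and 5.30 in IMF-0d to between 98.2 and 144 in IMF-8d. LPL, the lipase that feeds fat cells, made up nearly all of the later sums, at 276 to 611 FPKM in BF-8d and 93.7 to 141 in IMF-8d. PPARG, a master regulator of fat cells, stood at 2.57 to 3.33 FPKM in BF-0d and 0.486 to 1.28 in BF-8d. PLIN1, which coats lipid droplets, stayed below 0.2 FPKM throughout, and ADIPOQ, a hormone of mature fat cells, reached at most 0.230.

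The summed level of 5 smooth muscle and pericyte markers went from between 2261 and 2401 FPKM in BF-0d to between 15.3 and 33.4 in BF-8d, and from between 2820 and 3567 in IMF-0d to between 522 and 637 in IMF-8d. ACTA2 and TAGLN carried these sums. RGS5, the pericyte marker of the list, went the other way, from 0.0344 to 0.0639 FPKM in BF-0d to 11.102 to 55.6 in BF-4d and 1.85 to 6.55 in BF-8d, and from 0.753 to 1.51 in IMF-0d to 56.7 to 83.8 in IMF-8d. The summed level of the 6 stromal markers in the table was 11966 to 13128 FPKM in BF-0d, 5389 to 11153 in BF-2d, 2851 to 4191 in BF-4d and 3308 to 3667 in BF-8d. In IMF it was 12094 to 12559 on day 0, 10428 to 11640 on day 2, 10072 to 10333 on day 4 and 5809 to 6659 on day 8. COL1A1 and COL1A2 made up most of these sums. PDGFRA went the other way, from 63.4 to 84.9 FPKM in BF-0d to 149.5 to 277 in BF-8d. In IMF it rose from 50.8 to 70.3 on day 0 to 198 to 274 on day 8. PDGFRB rose in BF from 123 to 143 FPKM on day 0 to 174 to 190 on day 8. DCN fell in BF, from 945 to 1043 FPKM on day 0 to 462 to 563 on day 8. In IMF DCN went from 729 to 827 on day 0 to 1339 to 1427 on day 4 and 901 to 952 on day 8. These marker levels moved alongside the differences described here, and their part in them was not tested. In such cultures, fewer cells of a type and less RNA per cell cannot be told apart.

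Short windows upstream of PTGS2, PTGES and PTGS1 are shown because all of these enzymes were higher in BF-2d than in BF-0d and in IMF-8d than in IMF-4d, and because motif letters lie close to their starts. PLA2G4A has several annotated starts and none of its windows is printed. Sequences are from RefSeq on Sscrofa11.1, the build the authors aligned to, written 5′ to 3′ on the strand of the gene, with motif letters in capitals. The PTGS2 windows lay at chr9:127858997-127859026 and chr9:127858919-127858948 (minus strand), the PTGES window at chr1:269924487-269924516 (minus strand) and the PTGS1 window at chr1:262456053-262456082 (plus strand).
PTGS2, C/EBP: ccactcccggtcTTACGCAAttatttaagc
PTGS2, CRE core and E-box: acagtcatgcCGTCACGTGggcttagtttt
PTGES, GC boxes: gggagtGGGCGGgtgcagCCGCCCtcagct
PTGS1, GC box: gaggaagtaagtGGGCGGcggccgaggtga

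Motifs were searched on both strands in the 250 bases before each annotated start. The C/EBP letters TTGCGCAA or TTACGCAA were found before the PTGS2 start and before none of the other member starts searched (PTGDS, on an unplaced sequence, was not searched), and 0.348% of 19556 such windows in the genome hold them. The CRE core TGACG, held by 19.6% of windows, overlapped the E-box CACGTG, held by 6.39%, in the second PTGS2 window. The GC box GGGCGG, which occurred in 45.9% of all windows, was found at the starts of PTGES and PTGS1 but not in that of PTGS2. It was also found before PTGIS, PTGFR, PTGER4, HPGD and a PLA2G4A start. The CRE core was also found before a PLA2G4A start and before HPGD. NF-kB letters, held by 12.9% of windows, were found before a PTGIS start and before no other member start searched. The PTGES window before the start also held the E-box letters, outside the stretch printed. A match is a run of letters, not a shown binding site.

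PTGS2 and PLA2G4A are neighbours and their annotations overlap. PTGS2 lies on the minus strand of chromosome 9, from 127850164 to 127858866, and PLA2G4A on the plus strand from 127853581 to 128164825, so that 5286 bases belong to both. Of 9 RefSeq transcripts of PLA2G4A, 4 start inside PTGS2, 2 start 9 bases from the PTGS2 start on the other strand, and 3 start 141.6 kb away. Both PTGS2 windows printed above fall in a noncoding first exon of that pair of predicted PLA2G4A transcripts. Exons of both genes share 108 bases, which is 1.55% of the exonic bases of PLA2G4A and 2.99% of those of PTGS2. Whether the libraries kept strand is not given in the sources used here, so reads from the shared bases cannot be told apart, and the authors counted on Ensembl models that were not analysed here.

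PLA2G4A encodes the cytosolic phospholipase that frees arachidonic acid. In subcutaneous cells it stood at 7.96, 7.43 and 8.88 FPKM in the BF-0d libraries, at 128, 95.2 and 25.6 in BF-2d, at 173, 222 and 313 in BF-4d and at 268, 262 and 267 in BF-8d. In intramuscular cells it stood at 7.38, 6.12 and 4.86 FPKM in IMF-0d, at 9.97, 12.9 and 7.21 in IMF-2d, at 7.32, 6.73 and 7.84 in IMF-4d and at 130.1, 148 and 102 in IMF-8d. BF libraries had thus left their starting level by day 2, and IMF libraries were still near theirs on day 4 and far above it on day 8. On the log2(FPKM + 1) scale, with a standard error (SE) of 0.37, the BF difference was 2.93 between days 0 and 2 and 1.74 between days 2 and 4. Over the interval from IMF-4d to IMF-8d it was 3.93. The BF difference between days 2 and 4 was 1.51 without BF-4d replicate 3, when it no longer met the limits below, and 1.05 without BF-2d replicate 3, when it still did.

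The cyclooxygenases sit at the committed step: PTGS1 is the form that most tissues keep on, and PTGS2 is the form that cells induce. PTGS2 stood at 2.70, 5.05 and 6.87 FPKM in BF-0d, at 417, 119 and 60.6 in BF-2d, at 753, 1146 and 4825 in BF-4d and at 1003, 2880.3 and 2932 in BF-8d. It stood at 2.48, 1.73 and 1.75 FPKM in IMF-0d, at 4.72, 12.0 and 3.05 in IMF-2d, at 3.17, 2.46 and 3.16 in IMF-4d and at 412, 503 and 343 in IMF-8d. Each BF library of day 4 lay above every BF library of day 2, and each BF library of day 2 above every one of day 0, while the IMF libraries of days 0, 2 and 4 all stayed at 12.0 FPKM or less. The log2 difference, with an SE of 0.65, in BF was 4.70 between days 0 and 2, 3.47 between days 2 and 4 and 0.34 between days 4 and 8. For IMF it was 1.18 and -0.78 over the earlier intervals and 6.73 from day 4 to day 8.

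PTGS1 followed on a smaller scale. Its values were 5.74, 6.17 and 6.49 FPKM in BF-0d, 19.5, 24.9 and 8.90 in BF-2d, 32.5, 80.3 and 86.4 in BF-4d and 63.1, 71.5 and 66.1 in BF-8d. Its IMF values lay between 6.45 and 10.1 FPKM in all 9 libraries of days 0 to 4, and were 43.3, 39.9 and 43.9 in IMF-8d. The log2 difference (SE 0.29) in BF was 1.29 between days 0 and 2 and 1.83 between days 2 and 4, and in IMF it was 2.37 between days 4 and 8. The first of these missed the limits without BF-2d replicate 1 (1.17) or without BF-2d replicate 2 (0.997).

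**Figure D1:**
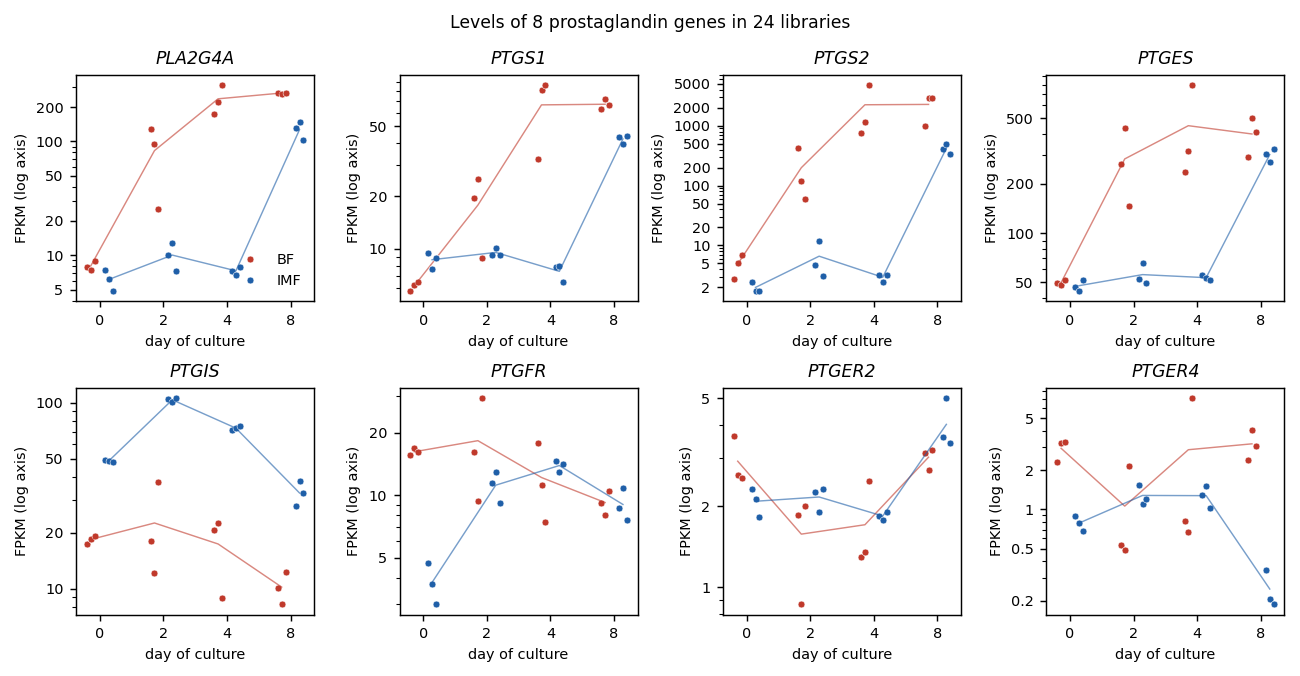
FPKM (log axis, own range in each panel) of the 8 genes above the low limit by day of culture, 1 point per library, BF in red and IMF in blue, with lines through the means of 3 libraries. PLA2G4A, PTGS1, PTGS2 and PTGES climb by day 2 in BF and between days 4 and 8 in IMF, PTGIS is highest in IMF-2d at 101 to 106 FPKM, and the receptors reach at most 29.3 FPKM.

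The inducible form overtook the constitutive form. The ratio of PTGS2 to PTGS1, both in FPKM, was 0.469 to 1.06 in BF-0d and 4.76 to 21.5 in BF-2d, and it was 14.3 to 55.9 in BF-4d and 15.9 to 44.3 in BF-8d. In IMF the ratio was 0.197 to 0.261 on day 0, 0.331 to 1.19 on day 2 and 0.307 to 0.491 on day 4, and then 7.81 to 12.6 on day 8. PTGS1 was therefore the more abundant form in 8 of the 9 IMF libraries of days 0 to 4, the exception being IMF-2d replicate 2.

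PTGES, the inducible synthase of prostaglandin E, usually works in tandem with PTGS2. It stood at 49.6, 48.6 and 51.4 FPKM in BF-0d, at 265, 438 and 145 in BF-2d, at 237, 316 and 799.6 in BF-4d and at 289, 502 and 413 in BF-8d. In the 9 IMF libraries of days 0 to 4 it stayed between 44.4 and 65.8 FPKM, and it stood at 304, 271 and 327 in IMF-8d. The libraries of the depots overlapped on day 0 and again on day 8. Its log2 difference (SE 0.35) was 2.34 from BF-0d to BF-2d, 0.61 and 0.00 over the later BF intervals, and 2.47 from IMF-4d to IMF-8d.

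PTGIS, which makes prostacyclin, went its own way. It stood at 49.5, 48.4 and 48.0 FPKM in IMF-0d, at 105, 101 and 106 in IMF-2d, at 71.6, 72.9 and 74.6 in IMF-4d and at 27.7, 37.7 and 32.7 in IMF-8d. In BF it stood at 17.4, 18.4 and 19.3 FPKM on day 0, at 18.1, 12.1 and 37.5 on day 2, at 20.6, 22.6 and 8.93 on day 4 and at 10.1, 8.24 and 12.3 on day 8. On each day all IMF libraries lay above all BF libraries, and IMF-2d lay above every other group. The log2 difference between depots (IMF minus BF, SE 0.29) was 1.36, 2.30, 2.11 and 1.60 on days 0, 2, 4 and 8. The fall from IMF-4d to IMF-8d was 1.15 on the log2 scale, and scaling the libraries by median ratios made it 0.97, under the limit of 1. Leaving out any of 5 of the 6 IMF libraries of those days also ended that call, with values from -1.16 to -1.04. The day 0 difference between depots missed the limits without BF-0d replicate 1 or 2 or any 1 of the 3 IMF-0d libraries, with values from 1.32 to 1.37.

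The balance of these terminal enzymes differed between depots as the plot of enzyme ratios shows. PTGES exceeded PTGIS in every BF library, by 2.63 to 2.84 times on day 0 and by 28.8 to 60.9 times on day 8. In IMF, PTGIS was the higher in 8 of 9 libraries of days 0 to 4, with a PTGES to PTGIS ratio of 0.917 to 1.08 on day 0, 0.466 to 0.655 on day 2 and 0.691 to 0.772 on day 4. By IMF-8d the ratio was 7.18 to 10.97. PTGDS, the lipocalin-type synthase of prostaglandin D, was listed at 0 in 16 of 24 libraries and reached at most 0.0778 FPKM.

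**Figure D2:**
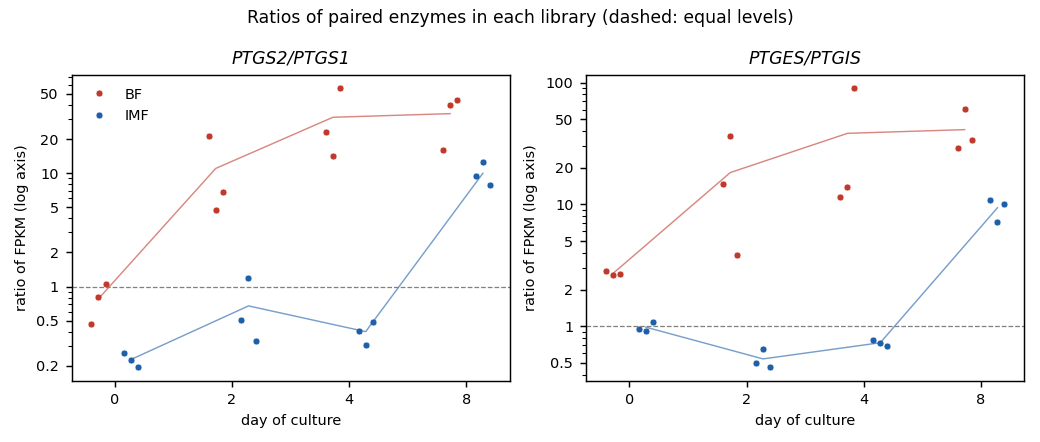
Ratio of PTGS2 to PTGS1 (left) and of PTGES to PTGIS (right), both from FPKM on a log axis, by day of culture, 1 point per library, BF in red and IMF in blue, with lines through the means of 3 ratios and a dashed line at equal levels. Most IMF libraries of days 0 to 4 lie below equal levels in both panels, and the IMF-8d libraries lie at 7.81 to 12.6 (left) and 7.18 to 10.97 (right).

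HPGD begins the breakdown of prostaglandins by oxidising them. It was listed at 0 in 21 of 24 libraries and at most at 0.0320 FPKM, in IMF-0d replicate 2, so that no library of either depot held it at a level that could be compared.

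No receptor exceeded 29.3 FPKM in any library. PTGFR, the receptor of prostaglandin F, stood at 15.6, 16.9 and 16.1 FPKM in BF-0d and at 4.70, 3.74 and 2.99 in IMF-0d, a log2 difference of -1.85 (SE 0.28) with no overlap. It was 11.5, 12.9 and 9.19 FPKM in IMF-2d and 14.6, 13.0 and 14.1 in IMF-4d, and from day 2 on the libraries of the depots overlapped. The difference of 1.34 from IMF-0d to IMF-2d met the limits, but not when any 1 of the 6 libraries was left out, with values from 1.22 to 1.47.

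PTGER2 and PTGER4 are receptors of prostaglandin E that raise cyclic AMP. PTGER1 and PTGER3, also receptors of prostaglandin E, reached at most 0.109 and 0.167 FPKM and did not pass the limit on low values. PTGER2 lay between 0.866 and 5.02 FPKM in all libraries and met the limits in 0 of 10 comparisons. PTGER4 stood at 2.38, 4.06 and 3.07 FPKM in BF-8d and at 0.343, 0.206 and 0.188 in IMF-8d, a log2 difference of -1.73 (SE 0.39) that was -1.58 without BF-8d replicate 2 and then missed the limits. The IMF-8d libraries held the lowest PTGER4 of all groups on the day when their PTGS2 and PTGES were highest. Among BF-4d libraries PTGER4 was 0.811 and 0.669 in replicates 1 and 2 and 7.10 in replicate 3.

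The members were counted with the rule applied to all 16135 tested genes, namely a Benjamini-Hochberg adjusted p under 0.01 in limma and a log2 difference of at least 1 in size. Between BF days 0 and 2, 4 of 8 met it, all higher (PLA2G4A, PTGS1, PTGS2 and PTGES), where 6.59% of all genes did. Between BF days 2 and 4, 3 met it, where 3.35% of all genes did, and between BF days 4 and 8 0 did, where 2.93% did. The corresponding IMF counts were 1 (0.787% of all genes), 0 (0.0372%) and 5 (7.25%), the last made up of PLA2G4A, PTGS1, PTGS2 and PTGES, higher, and PTGIS, lower. When only the libraries compared were fitted, PTGS2 from BF-0d to BF-2d was the single member call left over the BF intervals. Successive intervals share the libraries of the day between them, and comparisons of depots reuse the same libraries.

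Between depots the counts were 2 of 8 on day 0 (2.58% of all genes), 4 on day 2 (4.74%), 5 on day 4 (11.3%) and 3 on day 8 (6.96%). The day 4 differences (IMF minus BF) were -8.68 for PTGS2, -4.80 for PLA2G4A, -2.88 for PTGS1 and -2.85 for PTGES, against 2.11 for PTGIS. On day 2 they were -4.44 for PTGS2, -2.68 for PLA2G4A, -2.19 for PTGES and 2.30 for PTGIS, and these 4 calls were lost in a fit of that day's libraries alone. By day 8 the PTGS2 difference was -2.29 and it was lost on leaving out any of 16 of the 24 libraries (values from -2.43 to -2.03), and also with a pseudocount of 0.1 (-2.30), without the filter on low values (-2.29) and with a replicate block (-2.29). The day 8 differences of PLA2G4A (-1.08), PTGS1 (-0.65) and PTGES (-0.38) did not meet the limits. The change over an interval itself differed between depots, by the same limits, for 2 of 8 members over days 0 to 2 (PLA2G4A and PTGES, with 2.45% of all genes), for 2 over days 2 to 4 (PTGS1 and PTGS2, with 3.06%) and for 4 over days 4 to 8 (PLA2G4A, PTGS1, PTGS2 and PTGES, with 6.39%).

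**Figure D3:**
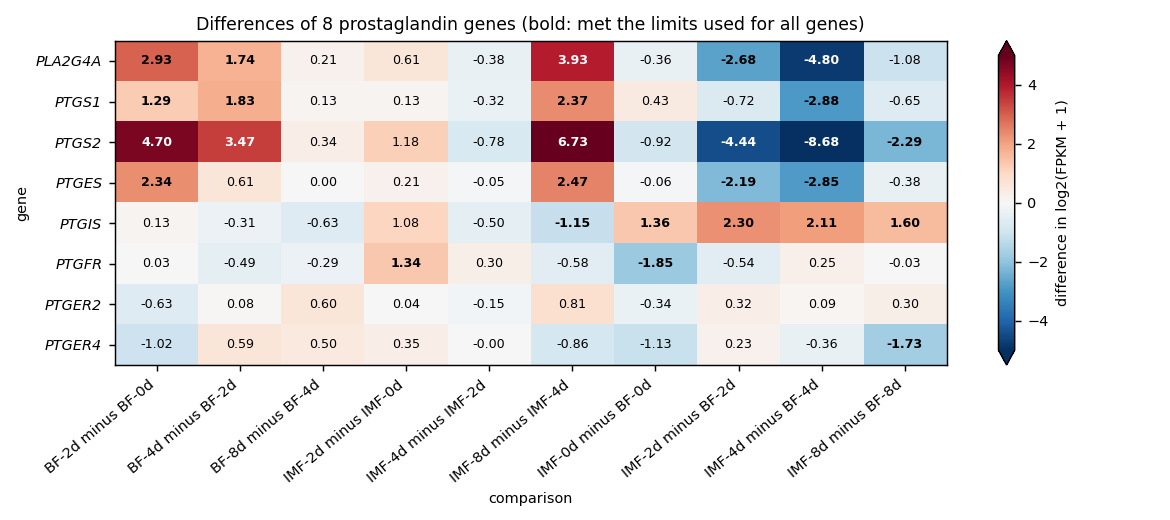
Differences in log2(FPKM + 1) of 8 members (vertical) in 10 comparisons (horizontal), red for higher and blue for lower in the group named first, with values in bold where they met the limits used for all genes. The columns from BF-0d to BF-4d and from IMF-4d to IMF-8d are red for the first 4 genes, and the day 4 comparison of depots holds -8.68 for PTGS2. The colour scale ends at 5 and -5.

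The libraries of a group did not always move together. The pooled SD of PTGS2 within groups was 0.86 on the log2 scale, larger than that of 99.5% of tested genes, with a median over all genes of 0.18. BF-4d replicate 3 held the highest value of all 24 libraries for PLA2G4A, PTGS1, PTGS2, PTGES and PTGER4, and the lowest of its group for PTGIS and PTGFR. BF-2d replicate 3 held the lowest value of its group for PLA2G4A, PTGS1, PTGS2 and PTGES and the highest for PTGIS, PTGFR, PTGER2 and PTGER4. In that library ACTA2, a smooth muscle marker, stood at 588 FPKM against 61.2 and 102 in the other BF-2d libraries and 1550.4 to 1641 in BF-0d. LPL stood at 6.71 FPKM against 82.1 and 77.7, with 1.58 to 2.76 in BF-0d. COL1A1 stood at 5072 FPKM against 2111 and 1806, with 5341 to 6050 in BF-0d. CEBPA did not stand apart, at 10.03 FPKM against 9.71 and 8.37. The part of these levels in the result was not tested. Without BF-2d replicate 3 the BF difference of PTGS2 between days 0 and 2 was 5.32 in place of 4.70, and without BF-4d replicate 3 that between days 2 and 4 was 2.67 in place of 3.47.

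PLA2G4A was the gene whose level most resembled that of PTGS2. Over the 24 libraries, and among 9479 genes with a symbol and a mean of at least 1 FPKM, the highest Pearson r of log2(FPKM + 1) with PTGS2 was 0.99 for PLA2G4A (Spearman's rho 0.972). The next were PDHX (0.99), ADAMTS4 (0.983), GPD2 (0.978) and CXCL8 (0.977), and none of the 5 fell below 0.97 without BF-4d replicate 3 and BF-8d replicate 3. The libraries form separate groups of low and high PTGS2, so these values mostly restate the group levels. For deviations from the group means, genes with high values were B3GNT2 (0.888), ELL (0.878), GCH1 (0.87) and OPTN (0.868), each between 0.788 and 0.849 without BF-4d replicate 3 and BF-2d replicate 1. On that measure PLA2G4A reached 0.742, PTGES 0.693 and PTGS1 0.58, and PTGIS was at -0.532. These values describe 24 libraries that fall into the same 8 groups and whose depth is unknown.

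**Figure D4:**
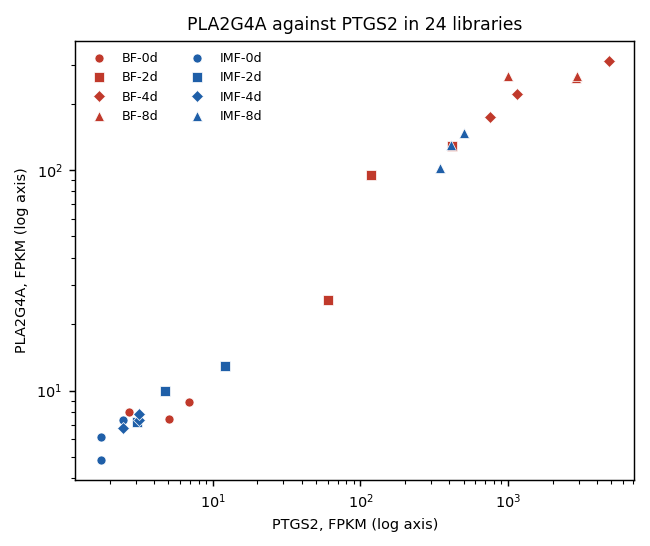
PLA2G4A (vertical) against PTGS2 (horizontal), both in FPKM on log axes, 1 point per library, BF in red and IMF in blue, with a symbol for each day. The 9 IMF libraries of days 0 to 4 and the BF-0d libraries lie together at or below 12.9 FPKM on both axes, the IMF-8d libraries lie among BF-2d and BF-4d, and BF-4d replicate 3 lies farthest out at 4825 FPKM of PTGS2.

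The other genes of prostanoid metabolism, 36 in number of which 32 were in the table and 22 were tested, were listed by their place in the pathway, with earlier results of these data known. Between depots 15 of 88 gene-by-day tests passed, 9 higher and 6 lower in IMF, where 2.58 to 11.3% of all tested genes passed on a day. Over the BF intervals 10 of 66 passed, 4 higher and 6 lower, where 2.93 to 6.59% of all genes passed per interval. Over the IMF intervals 5 of 66 passed, 4 higher and 1 lower, where 0.0372 to 7.25% did. In at least 1 of the 10 comparisons, 10 of the 22 passed, where 20.2% of all tested genes did. Medians of the 22 log2 differences lay between -0.06 and 0.29 over the 10 comparisons, against -0.07 to 0.07 for the medians of all tested genes. Adjusted p-values below are from limma over all tested genes.

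In the supply of arachidonic acid, 3 of 9 tested genes passed in at least 1 comparison, where 20.2% of all tested genes did. ACSL4, the acyl-CoA synthetase that prefers arachidonic acid, rose from between 20.2 and 22.0 FPKM in BF-0d to between 63.2 and 131 in BF-2d (log2 difference 2.01, adjusted p = 3.13e-05) and by 1.78 more to BF-4d (adjusted p = 2.75e-04). It rose in IMF from day 4 to day 8, from between 27.3 and 29.8 FPKM to between 157 and 259 (2.75, adjusted p = 5.89e-07), and was lower in IMF on day 4 by 3.36 (adjusted p = 2.51e-08). From BF-4d to BF-8d its libraries did not overlap either, but the log2 difference of 0.99 did not pass (adjusted p = 0.0213). ANXA1, which inhibits phospholipase A and is induced by glucocorticoids, fell by 1.22 from BF-0d to BF-2d (adjusted p = 9.52e-05) and stood 1.48 higher in IMF-4d than in BF-4d (adjusted p = 5.40e-06). MGLL, the lipase that frees fatty acids from monoacylglycerols, fell by 1.36 from BF-0d to BF-2d (adjusted p = 1.25e-04) and stood 1.31 higher in IMF-4d than in BF-4d (adjusted p = 8.88e-05). In a fit of the compared libraries alone, the falls of ANXA1 and MGLL and the BF-2d to BF-4d rise of ACSL4 were lost.

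Of 5 tested synthases and reductases, 3 passed in at least 1 comparison, where 20.2% of all tested genes did. AKR1B1, an aldose reductase with prostaglandin F synthase activity, rose from between 25.9 and 28.2 FPKM in BF-0d to between 53.3 and 212 in BF-2d (1.98, adjusted p = 8.61e-05). It rose from between 32.3 and 38.7 FPKM in IMF-4d to between 200.3 and 247 in IMF-8d (2.67, adjusted p = 2.25e-06). PRXL2B, another enzyme of prostaglandin F synthesis, fell by 1.38 from BF-2d to BF-4d (adjusted p = 1.28e-05) and by 1.15 from IMF-4d to IMF-8d (adjusted p = 1.48e-05). CBR3, a carbonyl reductase, fell by 1.40 from BF-0d to BF-2d (adjusted p = 9.07e-06) and stood 1.80 higher in IMF-4d than in BF-4d (adjusted p = 1.77e-07). The BF interval calls of these 3 genes were lost in a fit of the compared libraries alone.

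In transport and breakdown, 2 of 4 tested genes passed in at least 1 comparison, where 20.2% of all tested genes did. SLCO2A1, which carries prostaglandins into cells, stood at 2.64, 3.10 and 3.22 FPKM in IMF-8d and between 0.240 and 0.520 in IMF-4d, a rise of 1.49 (adjusted p = 8.54e-05). It was higher in IMF-8d than in BF-8d by 1.51 (adjusted p = 7.22e-05). PTGR1, which reduces oxidised prostaglandins, fell by 1.20 from BF-0d to BF-2d (adjusted p = 8.99e-04), and by 0.98 without BF-2d replicate 1, which missed the limit.

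Of 4 tested receptors and receptor partners, 2 passed in at least 1 comparison, where 20.2% of all tested genes did. PTGIR, the receptor of prostacyclin, was at or below 1.90 FPKM in every library before day 8 and stood at 8.18, 11.7 and 8.38 in BF-8d and at 9.11, 8.21 and 7.83 in IMF-8d. It rose by 2.06 from BF-4d to BF-8d (adjusted p = 2.05e-07, lost in a fit of the compared libraries alone) and by 2.97 from IMF-4d to IMF-8d (adjusted p = 2.73e-10). PTGIR therefore rose in both depots over the interval in which the prostacyclin synthase PTGIS showed log2 differences of -0.63 (BF) and -1.15 (IMF). PTGFRN, a membrane partner of the prostaglandin F receptor, was higher in IMF-8d than in BF-8d by 1.76 (adjusted p = 2.11e-04), at 28.9 to 34.7 FPKM against 7.84 to 10.7. Its BF-4d value depended on replicate 3, at 3.84 FPKM against 20.8 and 13.6, and without it the fall from BF-2d (1.41, adjusted p = 3.38e-03) was 0.78 and missed the limit.

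The lipoxygenase branch, which turns the same arachidonic acid into leukotrienes and related lipids, passed in 4 of 50 gene-by-comparison tests over 5 tested genes, where 0.0372 to 11.3% of all tested genes passed per comparison. In IMF from day 4 to day 8 ALOX15 rose by 1.05 (adjusted p = 2.62e-05) and LTA4H fell by 1.12 (adjusted p = 7.73e-06). Without IMF-4d replicate 3 or IMF-8d replicate 3 the ALOX15 value was 0.92 or 0.95, and with median ratio scaling the LTA4H value was -0.95, each under the limit of 1. ALOX5AP, the helper protein of leukotriene synthesis, was higher in IMF by 1.44 on day 4 (adjusted p = 1.59e-06) and by 1.22 on day 8 (adjusted p = 1.73e-05).

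Known regulators of PTGS2 and PTGES were listed with earlier results of these data known, so their adjusted p-values are no independent support. Those that passed between depots did so in 1 direction. The list holds a cytokine, feedback inhibitors and a factor of message decay, so a shared direction gives no reading for PTGS2. Of 14 tested, 10 passed in at least 1 comparison of depots, with 21 of 56 tests passing and all 21 lower in IMF. Of all tested genes 16.3% passed in at least 1 of these comparisons, and 2.58, 4.74, 11.3 and 6.96% did on days 0, 2, 4 and 8. The median of the 14 log2 differences was -1.02 on day 4, against 0.07 for all tested genes. IL1A, the cytokine interleukin 1 alpha, stood at 0.138, 0.111 and 0.503 FPKM in IMF-4d and at 38.7, 67.6 and 677 in BF-4d (-6.63, adjusted p = 2.83e-07). It reached 79.6, 75.9 and 62.5 FPKM in IMF-8d, a rise of 5.89 from IMF-4d (adjusted p = 2.07e-06). BF-4d replicate 3 was the high library for IL1A as it was for PTGS2.

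TNFAIP3 and NFKBIA, feedback inhibitors of NF-kB signalling, were lower in IMF on day 4 by 3.45 (adjusted p = 2.38e-08) and 2.60 (adjusted p = 1.26e-06). TNFAIP3 was lower in IMF on day 0 already, at 1.09 to 1.62 FPKM against 6.80 to 8.21 (-1.83, adjusted p = 1.78e-04). ZFP36L1, which binds AU-rich messages and hastens their decay, rose in both depots from day 0 to day 2, by 2.80 in BF (adjusted p = 3.10e-10) and by 1.39 in IMF (adjusted p = 8.92e-06). CEBPB, a C/EBP factor named here after its values were seen because of the motif in the PTGS2 window, stood at 10.3, 13.0 and 15.2 FPKM in BF-0d and at 40.05, 51.2 and 27.8 in BF-2d. It was between 8.24 and 16.5 FPKM in all 9 IMF libraries of days 0 to 4 and at 45.4, 26.0 and 37.0 in IMF-8d. CEBPA, a C/EBP factor read here as an adipocyte marker, moved differently. It stood at 1.93 to 2.61 FPKM in BF-0d, 8.37 to 10.03 in BF-2d, 1.92 to 7.27 in BF-4d and 2.21 to 2.55 in BF-8d. In IMF it stood at 5.57 to 6.36 FPKM on day 4 and at 1.28 to 2.11 on day 8. These levels of CEBPB and CEBPA are a description and carry no p-value.

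**Figure D5:**
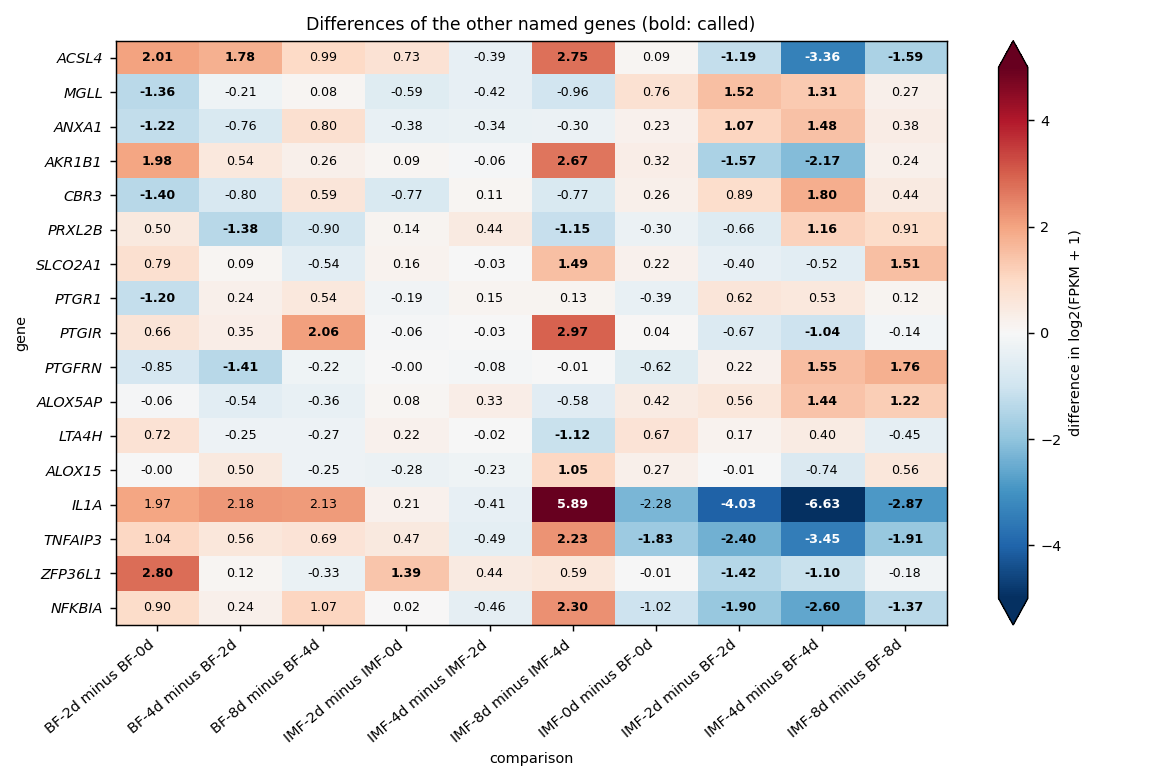
Differences in log2(FPKM + 1) of 17 further genes (vertical: supply of arachidonic acid, synthases, transport, receptors, lipoxygenase branch, regulators) in 10 comparisons (horizontal), red for higher and blue for lower in the group named first, with values in bold where the gene was called. ACSL4, AKR1B1, PTGIR, IL1A, TNFAIP3 and NFKBIA are red from IMF-4d to IMF-8d, and IL1A holds -6.63 on day 4 between depots. The colour scale ends at 5 and -5.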

How the data were processed

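Values were the deposited FPKM of the mRNA libraries, 1 per gene and library, which the authors made by filtering reads, aligning them with HISAT2 to Sscrofa11.1 and quantifying with StringTie 1.3.4d. The authors' DESeq2 needs counts and was not used. FPKM were tested as log2(FPKM + 1), which understates changes of low genes, by limma version 3.58.1 under R version 4.3.3 (eBayes with trend and robust) on all 24 libraries, 1 mean per group, for the 16135 genes whose FPKM summed to more than 1. Code for the fit was tested on simulated data. Thresholds were the study's (adjusted p 0.01, log2 difference 1). The members and gene lists were chosen with earlier results of these data known. Named were all members, and per list up to 4 called genes with the largest differences whose higher group averaged 1 FPKM or more. CEBPB and CEBPA were added after their values were seen. Of the genes most like PTGS2 within groups, 1 is not reported here. Some listed symbols had no matching row and were not analysed here. Alternatives were a pseudocount of 0.1, other filters and scalings, a replicate block, a fit of only the compared libraries and leaving out each library. No 2 libraries held identical values. Small RNA data were not used here.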

Additional observations from a re-analysis of the deposited data

Results flagged for a closer look

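The change over an interval differed between depots, by an interaction contrast (IMF change minus BF change) in the same limma fit, for the members and listed genes given here, and for members this is a description without a p-value. From day 0 to day 2 the difference in log2 change was -2.32 for PLA2G4A, -2.13 for PTGES, -1.89 for AKR1B1 and -1.41 for ZFP36L1, where 2.45% of all tested genes met the limits. From day 2 to day 4 it was -2.16 for PTGS1, -4.24 for PTGS2, -2.17 for ACSL4 and 1.82 for PRXL2B, where 3.06% did. From day 4 to day 8 it was 3.72 for PLA2G4A, 2.24 for PTGS1, 6.39 for PTGS2, 2.47 for PTGES, 1.77 for ACSL4, -1.10 for ANXA1, 2.41 for AKR1B1, -1.36 for CBR3, 2.03 for SLCO2A1, 1.3 for ALOX15 and 3.76 for IL1A, where 6.39% did.

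Several of these lay close to the limits. Out of 24 fits that each left out 1 library, the difference missed the limits in 15 for PLA2G4A, in 18 for PTGES and in 20 for AKR1B1 in the earliest interval, and in 8 for PTGS2 in the middle interval. In the last interval it missed them in 7 for ACSL4 (values over all fits from 1.37 to 2.14), in 19 for ANXA1 (from -1.3 to -0.94) and in 19 for IL1A (from 2.53 to 4.57). The values of PLA2G4A ran from -3.005 to -1.87, those of PTGES from -2.54 to -1.74, those of AKR1B1 from -2.40 to -1.42 and those of PTGS2 from -5.00 to -3.45. In many of these fits the library left out was not among those compared and the value itself did not move. With a replicate block, the differences of PTGES (-2.13) and AKR1B1 (-1.89) over days 0 to 2 and of IL1A (3.76) over days 4 to 8 missed the limits. Median ratio scaling had the same effect for PTGES (-2.21), AKR1B1 (-1.97) and IL1A (3.68), and quantile normalization for PTGES (-1.88), AKR1B1 (-1.70) and ACSL4 over days 4 to 8 (1.43). Without the filter on low values, those of PLA2G4A, PTGES and AKR1B1 over days 0 to 2, of PTGS2 over days 2 to 4 and of ANXA1 and IL1A over days 4 to 8 missed the limits, at the values given first. A fit of the compared libraries alone did the same for PLA2G4A, PTGES and AKR1B1 over days 0 to 2, for PTGS1, PTGS2 and ACSL4 over days 2 to 4 and for ACSL4 and IL1A over days 4 to 8. A pseudocount of 0.1 did so for AKR1B1 over days 0 to 2 (-1.92).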

How the results depend on the processing

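Direction was the same under every alternative run for every named difference that was called. Fitting only the compared libraries gave 1 call in place of 7 among the members over the BF intervals, 1 in place of 10 among the other prostanoid genes over the BF intervals, and 10 in place of 17 differences between depots in the change over an interval. A pseudocount of 0.1 gave 18 calls of the other prostanoid genes over the BF intervals in place of 10, and 9 in place of 5 over the IMF intervals. Leaving out each library in turn gave 12 to 16 member calls between depots, 6 to 9 over the BF intervals and 5 to 7 over the IMF intervals. For the other prostanoid genes it gave 13 to 16, 10 to 11 and 5 to 6, and for the differences between depots in the change 10 to 24, with 10 without IMF-4d replicate 1 or 2 and 11 without IMF-4d replicate 3. The cause was not tested. With a replicate block 4 named differences missed the limits (PTGS2 between depots on day 8, and the depot differences in change of PTGES and AKR1B1 over days 0 to 2 and IL1A over days 4 to 8) and no count moved by over 1.5 times. The correlation of deviations over 84 pairs of libraries with the same replicate number ran from -0.454 to 0.457 (median 0.00136). Of these pairs 9 were above 0.1, and 10 of 24 libraries correlated best, on average, with those of their own number. These values cannot decide whether the same number stands for the same animal, since the spread between libraries may be technical. Depth is unknown, which leaves low values such as those of HPGD and PTGDS without an error.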
